A study of Rattus norvegicus with 96 samples.

Results

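The genes for chemoattractant receptors of blood leukocytes, Fpr1, C3ar1, C5ar1, Ltb4r, Ptafr, Cxcr2 and Ccr1, and for the secreted ligand prokineticin 2, Prok2, were followed in the blood of rats that had inhaled crystalline silica. They are 8 listed genes, matched by symbol or by Entrez identifier to the 21792 probes of an Illumina rat expression array. Of the 8 genes, 7 had a probe, and 7 passed the detection filter, among 12306 genes tested. C5ar1, the receptor for complement fragment C5a, was matched to no probe by symbol or identifier, so it has no value here.

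Male CDF Fisher 344 rats, 3 months old per the labels, inhaled silica or air for 6 hours a day on 5 days, and 96 rats each gave 1 array of globin-depleted blood RNA. At 15 mg/m3 there were 8 silica rats and 4 air rats at each of weeks 0, 1, 2, 4, 8 and 16 after exposure, so that every week had air rats of its own. At 1 and at 2 mg/m3 there were 8 silica rats and 4 air rats each, killed 16 hours after the last exposure and labelled week 0. The study used the week 0 rats at 15 mg/m3 to derive a blood signature of silica exposure, and the later weeks and lower doses to follow it. The arrays carried red-cell (5 of 8 markers tested), platelet (4 of 8), neutrophil (12 of 15), monocyte (7 of 10), T-cell (9 of 10) and B-cell (6 of 8) transcripts. Arrays detected between 7642 and 9970 probes, and arrays of a group correlated at 0.983 to 0.997. The number of air rats limits precision, with a median standard error (SE) of 0.0994 for a silica difference on the log2 scale.

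Chemoattractant receptors are 7-helix receptors, most of them coupled to Gi proteins, through which neutrophils and monocytes sense sites of injury or infection. Fpr1 binds formylated peptides of bacteria and of damaged mitochondria, C3ar1 binds complement fragment C3a, Ltb4r binds leukotriene B4, and Ptafr binds platelet-activating factor. Cxcr2 binds CXC chemokines that call neutrophils out of the marrow, and Ccr1 binds CC chemokines such as Ccl3 and Ccl5. Prok2 is a small secreted protein made by neutrophils and, in the mouse, an output of the circadian clock. It acts through the receptors Prokr1 and Prokr2.

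The promoters of Prok2, Cxcr2, Ccr1 and Ptafr are shown because these genes varied together between rats, as described further on. Each run is the 250 bases before the gene start in RefSeq (build GRCr8), 5′ to 3′ on the gene's strand, and all 7 measured genes were found there. Capitals mark 3 short motifs searched on both strands: the E-box CACGTG, the core GAGGAA bound by PU.1, a myeloid factor of the ETS family, and the C/EBP motif TTGCNNAA. A motif on the other strand appears as its reverse complement.
Prok2, chr4:133917934-133918183, minus strand: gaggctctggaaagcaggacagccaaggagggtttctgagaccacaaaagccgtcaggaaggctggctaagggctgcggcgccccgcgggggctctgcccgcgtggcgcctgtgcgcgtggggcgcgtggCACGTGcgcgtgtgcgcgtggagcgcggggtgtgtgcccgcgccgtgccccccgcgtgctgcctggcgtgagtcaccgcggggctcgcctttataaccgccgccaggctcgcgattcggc
Cxcr2, chr9:83178395-83178644, plus strand: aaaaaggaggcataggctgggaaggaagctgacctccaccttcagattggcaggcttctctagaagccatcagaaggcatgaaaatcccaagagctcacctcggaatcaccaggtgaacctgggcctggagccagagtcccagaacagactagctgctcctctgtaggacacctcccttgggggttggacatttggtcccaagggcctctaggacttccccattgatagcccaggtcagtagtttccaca
Ccr1, chr8:132439267-132439516, minus strand: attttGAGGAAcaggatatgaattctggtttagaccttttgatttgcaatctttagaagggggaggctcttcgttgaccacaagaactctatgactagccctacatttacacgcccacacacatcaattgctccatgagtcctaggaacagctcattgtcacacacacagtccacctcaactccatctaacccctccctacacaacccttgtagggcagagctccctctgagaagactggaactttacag
Ptafr, chr5:150057154-150057403, plus strand: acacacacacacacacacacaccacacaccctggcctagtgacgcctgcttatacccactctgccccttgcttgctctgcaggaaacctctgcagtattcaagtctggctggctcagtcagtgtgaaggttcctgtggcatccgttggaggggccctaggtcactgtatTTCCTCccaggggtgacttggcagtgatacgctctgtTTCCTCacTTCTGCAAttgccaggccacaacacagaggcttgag
The Prok2 promoter held 1 CACGTG, beginning at position -120 from the start, a motif found in 5.59% of 33469 promoters of the same length. GAGGAA, found in 23.3% of them, occurred in Ptafr at -81 and -44 and in Ccr1 at -245. It also occurred in 2 genes whose promoters are not shown, Fpr1 at -152 and Ltb4r at -130. TTGCNNAA, found in 9.22%, occurred in Ptafr at -36. None of the 3 strings was found in this window of Cxcr2. A match describes the letters alone, and binding was not measured.

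The probes fell into a bright and a dim class. Those for Ccr1, Ptafr, Prok2 and Cxcr2 were detected on all 96 arrays, with median deposited intensities of 975.2, 715, 552 and 544. Those for C3ar1, Fpr1 and Ltb4r were detected on 35, 31 and 11 of the 96 arrays, with median intensities of 85.7, 83.3 and 81.4. Intensities of different probes are not levels that can be set against each other. Values below are log2 normalized intensities and differences are silica minus air, with SE and Benjamini-Hochberg adjusted p from limma over the 12306 genes tested. A gene was called where its adjusted p was under 0.05.

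**Figure D1:**
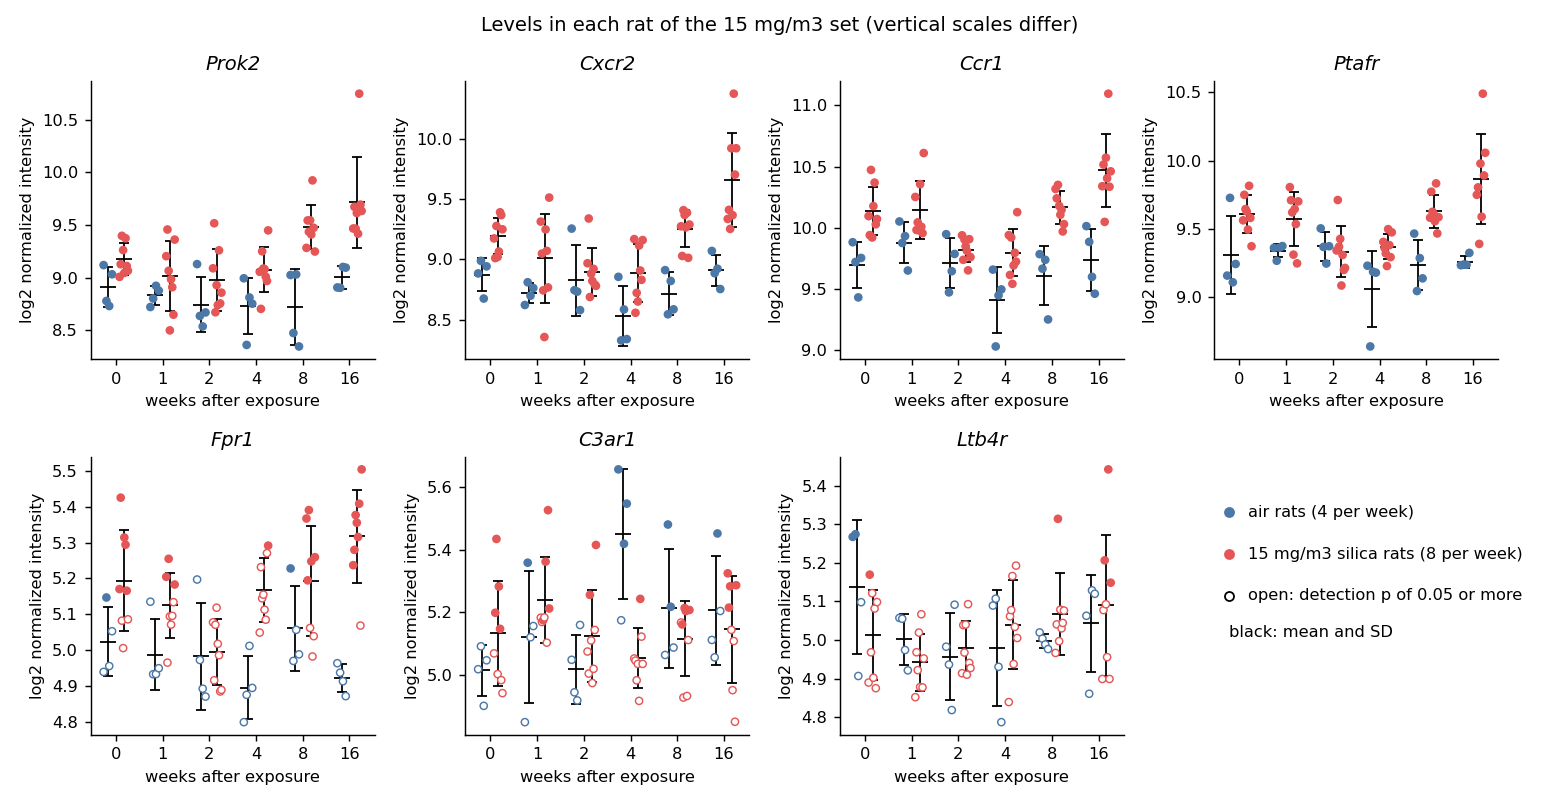
Log2 normalized intensity (vertical axis, scales differ) of the 7 measured genes in each air rat (blue) and 15 mg/m3 silica rat (red) by weeks after exposure (horizontal axis). Open points were not detected, and black marks give mean and SD. At week 16 every silica rat lay above every air rat for Prok2, Cxcr2, Ccr1, Ptafr and Fpr1, while for C3ar1 the air rats of week 4 stood high.

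Week 16 gave the most calls. Of the 7 measured genes, 5 rose and 0 fell, while 4.78% of all genes were called, 3.08% higher and 1.7% lower. The 5 were Prok2, Cxcr2, Ccr1, Ptafr and Fpr1, and in each of them 8 of 8 silica rats lay above the highest air rat, an arrangement seen for 1.45% of all genes. The median difference over the 7 genes was 0.61, against 0.00051 over all genes. C3ar1 and Ltb4r were not called. A fit of the 12 arrays of this week alone left only Fpr1 called, with adjusted p of 0.0514 for Ccr1, 0.0763 for Cxcr2, 0.0799 for Ptafr and 0.103 for Prok2 (limma). Column runs are 12 neighbouring arrays of the deposited table, and 4 of them held both groups, with 1 silica and 1 air rat each. The remaining silica rats of the week lay in runs without air rats of the 15 mg/m3 set. In each of the 4 runs, silica minus air was above 0 for all 5 genes. It was 0.32 to 1.84 for Prok2, 0.45 to 1.30 for Cxcr2 and 0.45 to 1.08 for Ccr1. For Ptafr it was 0.26 to 1.25 and for Fpr1 0.16 to 0.45.

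Fpr1, the formyl peptide receptor, had values of 4.96, 4.94, 4.91 and 4.87 in the 4 air rats at week 16. In the 8 silica rats it ranged from 5.07 to 5.50 with a median of 5.34. It was detected in 0 of 4 air rats and in 7 of 8 silica rats. The level in air is therefore only a bound, set per array at the higher of the probe's own value and the lowest signal among detected probes. With the undetected silica value taken as read, the silica rats were at least 1.23-fold higher, a bound that was not itself tested. The fitted difference, which takes the undetected air values as read, was 0.40 ± 0.074 (SE), with an adjusted p of 0.000269 in the limma fit.

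Ptafr, the receptor for platelet-activating factor, was tightly grouped in the air rats at week 16, at 9.24, 9.24, 9.24 and 9.33. The silica rats ranged from 9.39 to 10.49, with a median of 9.85. The groups did not overlap, and the silica values spread much more widely, with an SD of 0.329 against 0.0437 in air. The difference was 0.61 ± 0.12 (SE), or 52.5% higher, with an adjusted p of 0.000678. Ltb4r, the leukotriene B4 receptor, was detected in 0 of 4 air rats and 3 of 8 silica rats, and its groups overlapped. Its difference was 0.047 ± 0.074 (adjusted p = 0.81, limma), with a 95% confidence interval of -0.10 to 0.19.

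The chemokine receptor Cxcr2, listed in the array's annotation under its older symbol Il8rb, had values of 9.07, 8.89, 8.92 and 8.75 in air rats at week 16. In silica rats it ranged from 9.25 to 10.37 with a median of 9.56, above every air rat. The difference was 0.75 ± 0.15 (SE), or 68.3% higher, with an adjusted p of 0.00098. Ccr1 was at 10.01, 9.89, 9.60 and 9.46 in air rats and at 10.05 to 11.10, median 10.43, in silica rats. The lowest silica rat lay just above the highest air rat. Its difference was 0.73 ± 0.13, or 66% higher, with an adjusted p of 0.000137, the lowest of the 7 genes.

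Prok2 was at 8.91, 8.91, 9.10 and 9.10 in air rats at week 16 and at 9.42 to 10.75, median 9.62, in silica rats. The groups did not overlap, and 7 of the 8 silica rats lay within 9.42 and 9.69, with silica rat 6 alone at 10.75. The difference was 0.71 ± 0.17 (SE), or 63.8% higher, with an adjusted p of 0.00682. Without that rat it was 0.56 ± 0.16 with an adjusted p of 0.0337. The same rat held the highest silica value of Cxcr2, Ccr1 and Ptafr, whose differences without it were 0.65, 0.64 and 0.52, all still called.

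The complement receptor C3ar1 was detected in 1 of 4 air rats and 4 of 8 silica rats at week 16. Air rats were at 5.11, 5.06, 5.45 and 5.20, and silica rats ranged from 4.85 to 5.32. The groups overlapped, with 2 silica rats below every air rat and 0 above every air rat, and the difference was -0.061 ± 0.086 (adjusted p = 0.782, limma), with a 95% confidence interval of -0.23 to 0.11. That interval lies below the differences fitted for the other receptors called at this week, but the genes were not tested against each other.

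**Figure D2:**
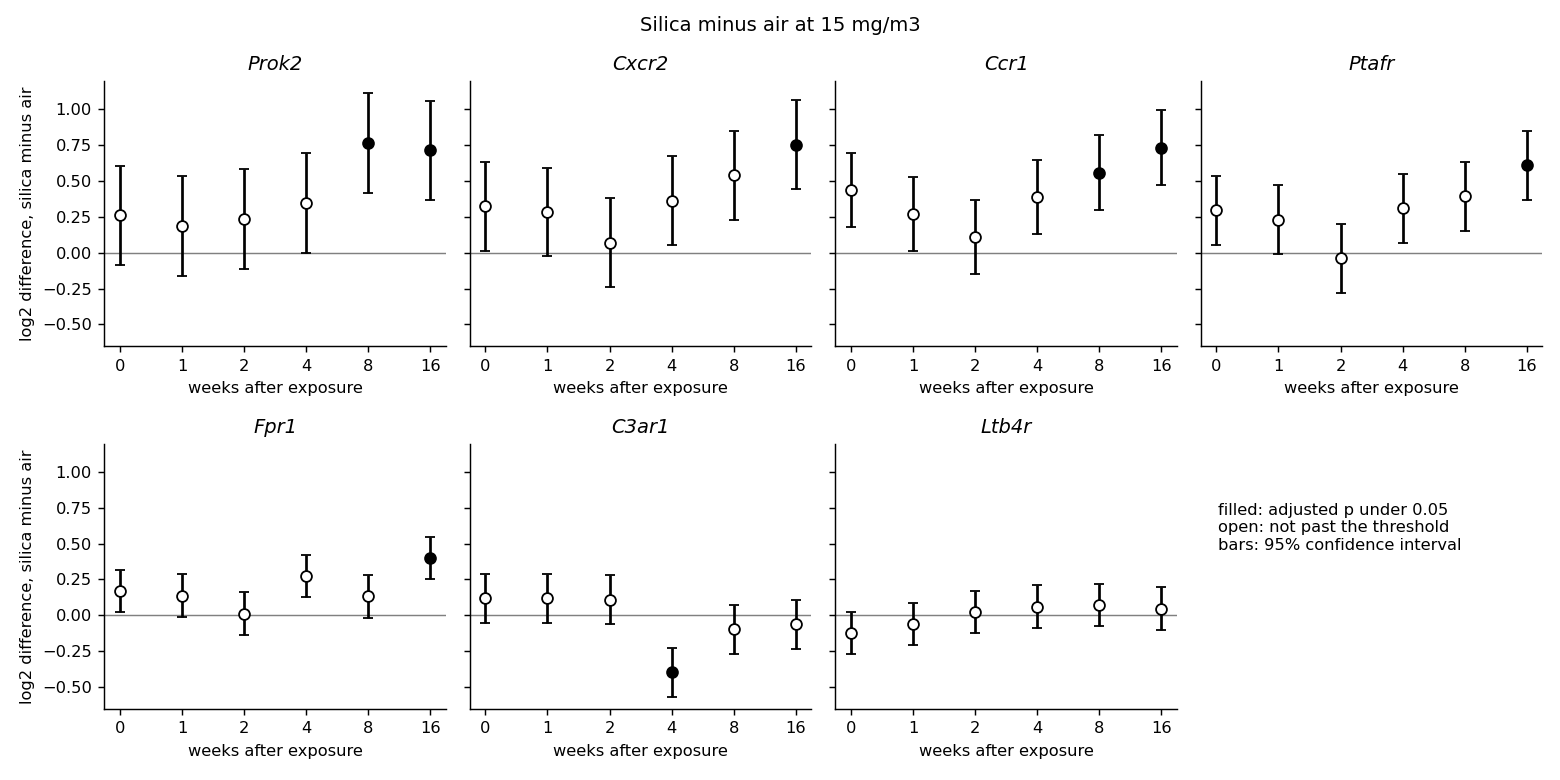
Silica minus air at 15 mg/m3 (log2, vertical axis) by weeks after exposure for the 7 measured genes, with 95% confidence intervals. Filled points had an adjusted p under 0.05: Prok2 and Ccr1 at weeks 8 and 16, Cxcr2, Ptafr and Fpr1 at week 16, and C3ar1, lower, at week 4.

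At week 8 the ligand Prok2 and the receptor Ccr1 rose, 2 of the 7 genes, where 0.268% of all genes were called and 0.26% were higher. Prok2 was at 9.03, 8.48, 9.03 and 8.35 in air rats and at 9.25 to 9.92, median 9.46, in silica rats. Ccr1 was at 9.79, 9.67, 9.74 and 9.25 in air rats and at 9.97 to 10.35, median 10.16, in silica rats. Neither gene's groups overlapped. The differences were 0.76 ± 0.17 for Prok2 (adjusted p = 0.0209, limma) and 0.56 ± 0.13 for Ccr1 (adjusted p = 0.0244).

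Both week 8 calls were lost without air rat 2 or air rat 4. Without air rat 2 the adjusted p was 0.122 for Prok2 and 0.0714 for Ccr1 in the limma fit, and without air rat 4 it was 0.268 and 0.337. The differences were 0.68 and 0.58 without air rat 2, and 0.64 and 0.44 without air rat 4. Leaving out silica rat 3 ended the call of Ccr1 (0.0737), and leaving out silica rat 6 ended that of Prok2 (0.0537). The 4 column runs holding both groups had 1 silica and 1 air rat of this week each. Within them Prok2 was higher by 0.51 to 1.13 and Ccr1 by 0.36 to 0.72. A limma fit that kept only those arrays of week 8, with all other groups unchanged, called neither (differences of 0.84 and 0.56, adjusted p = 0.0879 and 0.204).

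Cxcr2 and Ptafr also had all 8 silica rats above all 4 air rats at week 8, an arrangement of 1.11% of all genes, and neither was called. Cxcr2 was at 8.91, 8.55, 8.82 and 8.59 in air rats and 9.01 to 9.41 in silica rats, a difference of 0.54 ± 0.15 (adjusted p = 0.101, limma). Ptafr was at 9.47, 9.05, 9.29 and 9.14 in air rats and 9.47 to 9.83 in silica rats, a difference of 0.39 ± 0.12 (adjusted p = 0.137). Its groups all but touched, with the lowest silica rat at 9.468 and the highest air rat at 9.467. A fit of the 12 arrays of this week alone called both Cxcr2 and Ptafr, with adjusted p of 0.0163 and 0.0474 (limma). Fpr1, C3ar1 and Ltb4r overlapped between the groups at this week, with differences of 0.13, -0.097 and 0.071.

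At week 4 the only call among the 7 genes was C3ar1, which was lower in silica rats, where 0.122% of all genes were called and 0.106% were lower. Air rats were at 5.66, 5.17, 5.42 and 5.55, with 3 of 4 detected, and silica rats at 4.92 to 5.24, median 5.04, with 1 of 8 detected. All 8 silica rats lay below the mean of the air rats, and 7 of them lay below every air rat. The difference was -0.40 ± 0.086 (adjusted p = 0.0342, limma). Without air rat 1, the array with the fewest detected probes, it was -0.33 with an adjusted p of 0.284. The authors' deposited log2 values gave -0.22 (adjusted p = 0.0724), and values without background correction gave -0.25 (adjusted p = 0.0751). The fit of this week's 12 arrays alone gave an adjusted p of 0.678, and a block for the replicate number 0.0519.

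For C3ar1 the air rats stood high at week 4. Among the 16 groups, C3ar1 had its highest mean in them, 5.45 ± 0.21 (SD, n = 4), while the silica mean of 5.05 ± 0.096 (n = 8) lay within the range of the other air groups, 5.01 to 5.21. Across the 6 air groups of the 15 mg/m3 set, C3ar1 differed by a moderated F test (F = 5.35, adjusted p = 0.00203), as 31% of all genes did. In single contrasts the week 4 air rats were higher by 0.44, 0.33 and 0.43 than those of weeks 0, 1 and 2 (adjusted p = 0.00114, 0.0157 and 0.00338, limma). Against weeks 8 and 16 the difference was 0.24 each time and was not called (adjusted p = 0.279 and 0.169). None of the other 6 measured genes passed the F test, with adjusted p from 0.147 for Ccr1 to 0.756 for Prok2.

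The other 6 genes were all higher in silica rats at week 4 without passing the threshold. The air rats of that week had the lowest mean of the 16 groups for Fpr1, Ptafr, Cxcr2 and Ccr1. Fpr1 was at 4.80, 4.87, 5.01 and 4.89 in air rats, none detected, and at 5.05 to 5.29 in silica rats, with 1 of 8 detected. Its groups did not overlap, as for 0.228% of all genes, but most of these values were not detected. With most silica values undetected as well, no smallest fold follows. The fitted difference was 0.27 ± 0.074 (SE), with an adjusted p of 0.0931 in the limma fit. The differences of Ptafr, Cxcr2, Prok2 and Ccr1 were 0.31, 0.36, 0.35 and 0.39, each with overlapping groups. Air rat 2 of this week was the lowest of its group for all 4.

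At weeks 0, 1 and 2 none of the 7 genes was called, where 0.0163%, 0.39% and 0.0325% of all genes were. At an unadjusted p under 0.05 there were 4, 1 and 0 of the 7, and 1117, 1378 and 1119 of all genes. Right after exposure, at week 0, the chemokine receptors Ccr1 and Cxcr2 were the exceptions to overlap, with all 8 silica rats above all 4 air rats, as for 0.609% of all genes. Ccr1 was at 9.88, 9.72, 9.43 and 9.75 in air rats and 9.92 to 10.47, median 10.08, in silica rats, a difference of 0.44 ± 0.13 (adjusted p = 0.239, limma). Cxcr2 was at 8.88, 8.99, 8.68 and 8.94 in air rats and 9.01 to 9.39, median 9.21, in silica rats, a difference of 0.32 ± 0.15 (adjusted p = 0.5257).

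Week 2 held the smallest differences of the time course for Ptafr, Cxcr2, Ccr1 and Fpr1, at -0.040, 0.071, 0.11 and 0.012. Prok2 differed by 0.19 at week 1 and 0.23 at week 2, with overlapping groups both times. The median difference of the 7 genes was 0.26, 0.19, 0.071, 0.31, 0.39 and 0.61 over weeks 0, 1, 2, 4, 8 and 16, while the median of all genes stayed between -0.0032 and 0.0086.

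Whether the silica difference itself changed with time was tested directly. From week 0 to week 16 it grew by 0.45 ± 0.25 (SE) for Prok2, 0.43 ± 0.22 for Cxcr2, 0.31 ± 0.17 for Ptafr, 0.29 ± 0.18 for Ccr1 and 0.23 ± 0.11 for Fpr1. None of the 7 genes passed (adjusted p = 0.788 to 0.858, limma), and 0% of all genes did. At an unadjusted p under 0.05 only Fpr1 did in this contrast, and the 95% confidence interval for Prok2 ran from -0.038 to 0.94. A moderated F test over all 6 weeks called 0.146% of all genes and none of the 7, with the lowest adjusted p, 0.0772, for C3ar1. The unadjusted p in that F test was 0.000201 for C3ar1, 0.0109 for Fpr1, 0.0133 for Ptafr and 0.0217 for Ccr1 (limma). From week 0 to week 8 the difference of Prok2 changed by 0.50 (95% confidence interval 0.013 to 0.996, adjusted p = 0.81), and from week 0 to week 4 that of C3ar1 changed by -0.51 (-0.76 to -0.27, adjusted p = 0.342). So a call at week 16 and none at week 0 does not show that the difference grew.

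The lower doses addressed whether blood responded at week 0 below 15 mg/m3. No gene of the 7 was called at 1 or at 2 mg/m3, where 0% of all genes were called. At an unadjusted p under 0.05 there were 1 and 4 of the 7, and 313 and 580 of all genes. At the lowest dose Prok2 read 8.63, 7.97, 8.68 and 8.29 with air and 8.18 to 8.86 with silica, and these groups had the lowest means of all 16, 8.39 and 8.58. In the 2 mg/m3 set it was at 8.22, 9.26, 8.47 and 8.74 in air rats and 8.26 to 9.52 in silica rats. The groups of both sets overlapped, and the Prok2 differences were 0.19 ± 0.17 and 0.26 ± 0.17, against 0.26 ± 0.17 at 15 mg/m3. All arrays of these lower-dose sets lay in column runs that held no air rats of the 15 mg/m3 set. Dose set and column run therefore cannot be told apart where air levels or silica differences at 15 mg/m3 are set directly beside those of the lower doses. The 1 and 2 mg/m3 sets shared their column runs, and those runs also held silica rats of the 15 mg/m3 set.

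The other bright genes are given side by side. At 1, 2 and 15 mg/m3, Cxcr2 differed by 0.318, 0.321 and 0.321, Ccr1 by 0.17, 0.31 and 0.44, and Ptafr by 0.22, 0.32 and 0.30. The difference at 15 less that at 1 mg/m3 had a 95% confidence interval of -0.10 to 0.63 for Ccr1, -0.43 to 0.44 for Cxcr2 and -0.43 to 0.56 for Prok2, so that neither a dose step of that size nor its absence was shown. The F test of the silica difference between doses called none of the 7 genes and 0% of all genes (adjusted p = 1.000 for each of the 7).

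**Figure D3:**
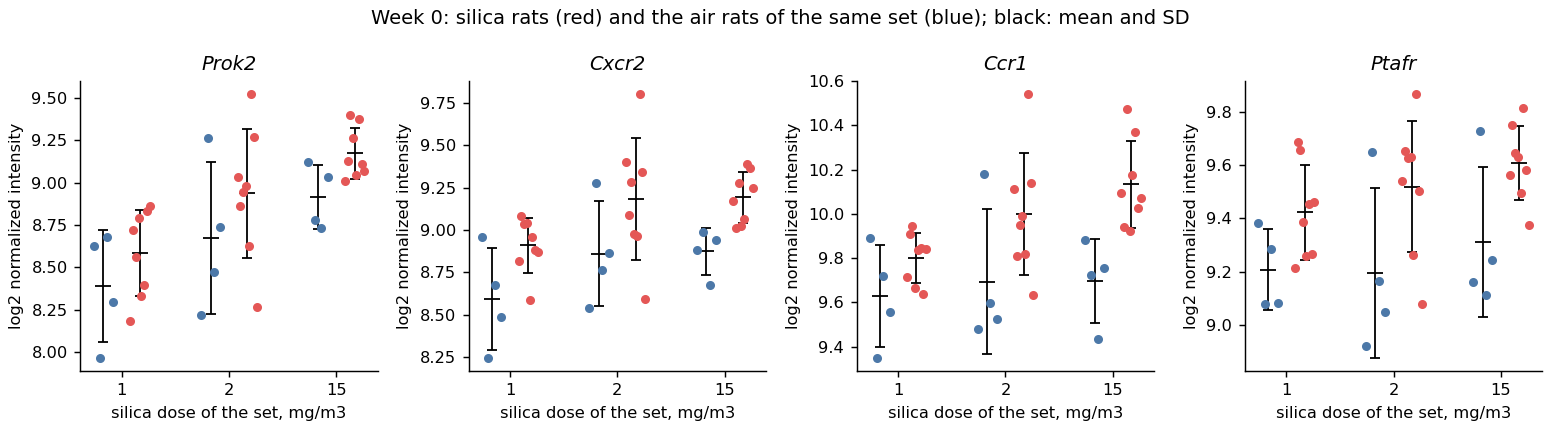
Log2 normalized intensity (vertical axes) of Prok2, Cxcr2, Ccr1 and Ptafr at week 0 in silica rats (red) and their air rats (blue) by dose in mg/m3 (horizontal axis), with mean and SD in black. Silica rats overlap the air rats of their set except for Cxcr2 and Ccr1 at 15 mg/m3, and air rat 2 of the 2 mg/m3 set is the highest of its group for all 4 genes.

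Over the 16 groups the highest mean of Prok2 (9.71), Cxcr2 (9.66), Ccr1 (10.47), Ptafr (9.87) and Fpr1 (5.32) was that of the silica rats at week 16. For Prok2, Cxcr2, Ccr1 and Ptafr the silica rats at week 8 came next. Most neighbours in the order did not differ beyond their spread: of 15 steps, the number larger than the bigger SD of the 2 groups was 1 each for Prok2, Cxcr2, Ccr1 and C3ar1 and 0 for Fpr1, Ptafr and Ltb4r. For Cxcr2 and Ccr1 it was the step from week 8 to week 16, of 1.04 and 1.02 SD, and for Prok2 the step from week 0 to week 8, of 1.48 SD, all in silica rats. The group means of Ltb4r spanned no more than 0.19.

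The 4 bright genes moved together from rat to rat. In 5 of the 16 groups 1 rat was the highest for all 4, and in 5 groups 1 rat was the lowest for all 4. Pairs of these genes correlated at 0.75 to 0.85 (Pearson r, 96 arrays), at 0.58 to 0.76 over the 32 air arrays alone, and at 0.61 to 0.75 after each group's mean was taken off, all as descriptions of arrays that share their normalization. Fpr1 followed them less closely, at 0.50 to 0.64 over all arrays and at 0.16 to 0.35 after each group's mean was taken off. C3ar1 showed r of -0.087 to 0.019 with these 4 genes.

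**Figure D4:**
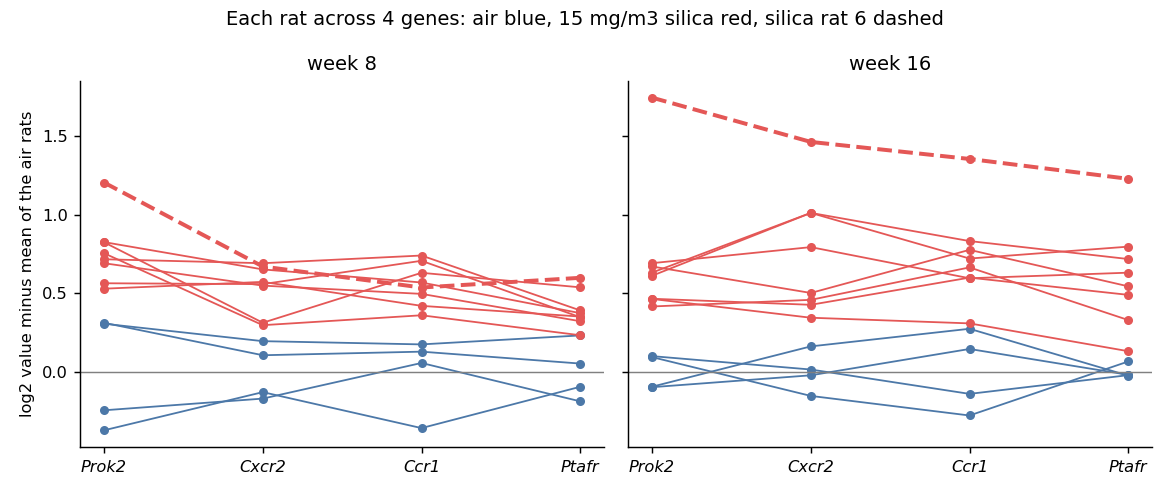
Log2 value minus the mean of that week's air rats (vertical axis) for Prok2, Cxcr2, Ccr1 and Ptafr (horizontal axis), with 1 line per rat at weeks 8 and 16, air blue and silica red. Silica rat 6 of week 16 (dashed) is the highest for all 4 genes. The rat of that number at week 8, another animal, is also dashed.

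By likeness over all 96 arrays, the 3 genes closest to Prok2 were Mmp8, a collagenase of neutrophil granules (r = 0.88), Klra2 (0.85) and RGD1563994_predicted (0.84). Closest to Cxcr2 were Siglec8 (0.89), Bst1 (0.87) and LOC687856 (0.86), and closest to Ccr1 were Bst1 (0.88), Mocos (0.87) and Il22ra2 (0.85). Ptafr followed Antxr2, Cxcr2 and Fbxl5, each at 0.85. Fpr1 followed the IgA receptor gene Fcar (0.65), Mocos (0.65) and Ldhc (0.64). For the mostly undetected C3ar1 and Ltb4r the highest r were 0.47, with Lpar1, Qrfpr (0.45) and Dse (0.45) next, and 0.42, with Hlx, then Flot2 (0.40) and Tgm1 (0.38).

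Neutrophil markers moved with these genes. Of 15 such markers 12 were tested (Lcn2, Ltf and Prtn3 were below the detection filter), and 0, 5, 0, 0, 5 and 8 of them rose over weeks 0, 1, 2, 4, 8 and 16, with none lower. Their median differences in that order were 0.33, 0.41, 0.063, 0.37, 0.62 and 0.62. Their normalized level, summed off the log2 scale, was 11214 to 15887 in air rats and 16912 to 26559 in silica rats at week 16. At week 8 it was 11743 to 15313 and 18078 to 22706. The brightest markers weigh most in such a sum. In silica rats at 1 mg/m3, for example, S100a8 and Retnlg had mean log2 values of 12.4 and 12.1, and the next, Il1r2, 9.40. The defining marker S100a8 was 0.69 ± 0.13 higher at week 16 (adjusted p = 0.000419, limma) and Mmp8 1.10 ± 0.14 higher (adjusted p = 1.9e-07). Silica rat 6 of week 16, the highest for Prok2, Cxcr2, Ccr1 and Ptafr, also had the highest neutrophil sum, 26559, of its group. Such a match held in some groups and not in others. Among the air rats of week 4, rat 1 was highest for these 4 genes and rat 3 for the sum. Among silica rats at 2 mg/m3 these were rat 6 and rat 4. The rat lowest for all 4 genes also differed in some groups from that of the lowest sum.

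The part of the neutrophil markers in the results was not tested, and in whole blood more cells of a type and more RNA per cell cannot be told apart. Week 1 showed 5 marker rises with none of the 7 genes called. Of 7 monocyte markers tested, 0 rose and 1 fell at week 16, Ly86 at -0.31 ± 0.086 (adjusted p = 0.0186, limma), and their summed level was 2479 to 3026 in air rats and 2135 to 3427 in silica rats. At weeks 8 and 16 no marker of T cells, B cells, NK cells, platelets, red cells or eosinophils, basophils and mast cells was called.

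Other genes of the same systems were counted at week 16, where 4.78% of all genes were called and 3.08% were higher. Of 29 other chemoattractant receptors 19 were tested, and none was called (median difference 0.019). The lowest adjusted p among them was that of Cxcr4, the marrow-retention receptor, at 0.32 ± 0.14 (adjusted p = 0.171, limma). Of 29 chemoattractant ligands 17 were tested and 2 rose, with a median of -0.020. They were Anxa1, an inhibitor of neutrophil migration that acts on formyl peptide receptors, at 0.62 ± 0.12 (adjusted p = 0.000763), and the chemokine Ccl6, at 0.51 ± 0.14 (adjusted p = 0.0189). Of the prokineticin genes other than Prok2, the ligand Prok1 and the receptors Prokr1 and Prokr2 all lay below the detection filter, detected on fewer than 4 arrays each, so the receptors of Prok2 were not tested.

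Of 12 genes that make or break down leukotriene B4 and platelet-activating factor, 11 were tested and 3 rose at week 16, against 3.08% of all genes, with a median of 0.23. Alox5ap, which presents arachidonate to 5-lipoxygenase, was 0.47 ± 0.12 higher (adjusted p = 0.00731, limma), and Lta4h, the last enzyme of leukotriene B4 synthesis, 0.28 ± 0.081 higher (adjusted p = 0.025). Pafah1b2, a subunit of an enzyme that inactivates platelet-activating factor, was 0.31 ± 0.070 higher (adjusted p = 0.00301). The 3 genes thus include 2 of synthesis and 1 of breakdown. At week 8 Anxa1, at 0.56 ± 0.12 (adjusted p = 0.0168), and Alox5ap, at 0.50 ± 0.12 (adjusted p = 0.021), were already higher.

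Downstream of the receptors, 2 of 24 signalling genes tested rose at week 16, the inhibitory G protein subunit Gnai3 by 0.44 ± 0.084 (adjusted p = 0.000453, limma) and the phospholipase Plcb2 by 0.32 ± 0.10 (adjusted p = 0.0389), and none fell. These counts stand beside the 3.08% of all genes that were higher. Of 10 leukocyte adhesion genes tested 1 rose, the hyaluronan receptor Cd44, by 0.51 ± 0.093 (adjusted p = 0.000267).

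**Figure D5:**
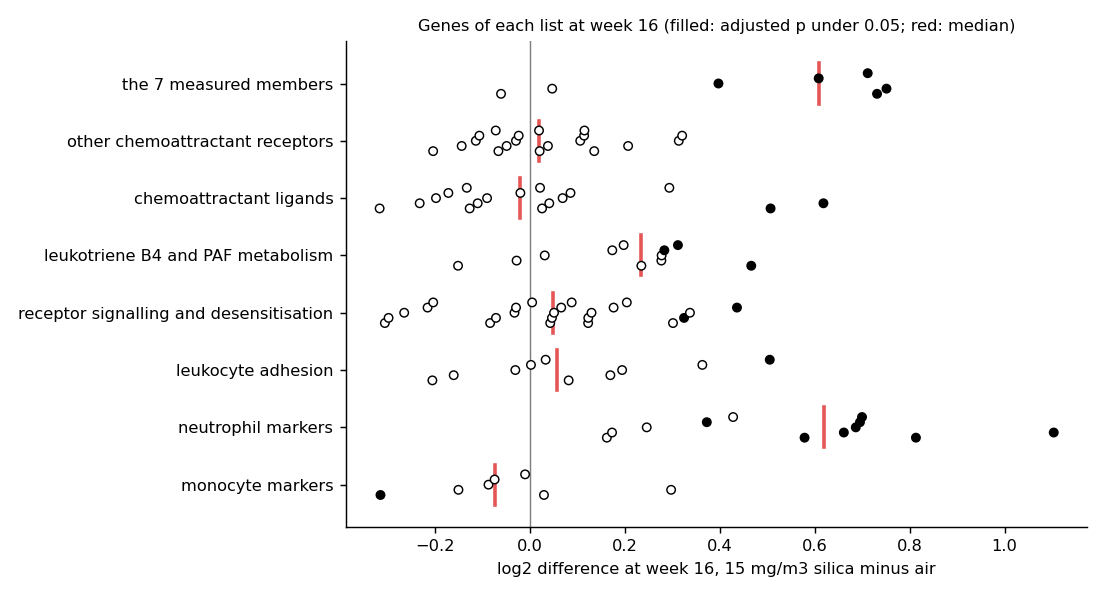
Log2 difference at week 16, 15 mg/m3 silica minus air (horizontal axis), of the tested genes of each list shown (vertical axis). Filled points had an adjusted p under 0.05 and red bars mark medians, 0.61 for the 7 measured genes, 0.62 for neutrophil markers and -0.074 for monocyte markers.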

How the data were processed

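Whole-blood RNA of 96 rats was measured on 1-colour Illumina arrays. Per the file headers, the deposited table gives each probe an intensity and a detection p-value on every array. The submitters' processing notes name BeadStudio. The authors' deposited log2 values, for which those notes name limma and lumi, follow the log2 intensity of their array (r of at least 0.992). Their transform is not given in the sources used here, and they served as an alternative. Of the per-sample columns, 192 were not used.

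Intensities were background-corrected by normexp (limma 3.58.1, R 4.3.3, offset 16, background inferred from detection p-values, without 626 probes off their grid), quantile normalized and taken to log2. The filter asked for a detection p under 0.05 on 4 or more arrays, which 12368 of 21792 probes met. The probe of highest mean stood for a gene, leaving 12306 genes. Names came through Entrez identifiers for 16866 probes, a matched symbol for 144 and the file for 4782. All 96 arrays entered a single limma fit of 16 group means. Replicates are separate rats per the labels. In data simulated for week 16 over 12306 genes the fit recovered 65 of 67 genes changed 1.5-fold. The simulated noise gave each gene the same spread in every group. Real spreads differed, as for Ptafr at week 16, so that share need not hold for the 7 genes.

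The genes and lists were chosen with earlier results of these data known. Named genes are the 8 listed ones, from each pathway list up to 4 called at week 16 by lowest adjusted p (or the 1 of lowest p), and the 3 of highest r for each. The result of 1 list is not reported here. S100a8, Ly86 and, among the markers, Mmp8 were named after their values were seen. The alternatives were the deposited log2 values, no or the stock background correction, other detection filters, 12 arrays alone, column runs, a replicate block, and leaving out each array. The labels name no chip, so runs of 12 neighbouring columns, 8 in all, stood in for one.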

Additional observations from a re-analysis of the deposited data

Results flagged for a closer look

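In 10 of 112 groups of values 1 rat lay far from the rest (its gap to the nearest rat, as a share of the group's range, was above the 95% critical value), where chance gives about 1 in 20. In silica rats, Prok2 read 10.75 in rat 6 of week 16 and 9.92 in rat 6 of week 8, and Cxcr2 read 9.34 in rat 2 of week 2. Ltb4r read 5.31 in silica rat 3 of week 8, 1 of 8 detected there. In air rats, Ptafr read 9.27 in rat 2 of week 1, 8.64 in rat 2 of week 4 and 9.33 in rat 4 of week 16, the last being a gap of under 0.1 in a very tight group. Fpr1 read 5.13 in air rat 1 of week 1 and C3ar1 5.21 in air rat 1 of the 1 mg/m3 set. Ccr1 read 10.18 in air rat 2 of the 2 mg/m3 set, which was also the highest air rat of that set for Prok2, Cxcr2 and Ptafr and for the neutrophil sum.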

How the results depend on the processing

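Under no alternative did a called value change sign. The count of called genes at week 16, 5, held under every alternative except a fit of the 12 arrays alone, which left 1, Fpr1, with adjusted p of 0.0514 to 0.103 for the other 4 and 62 genes called in all. At week 8 the count of 2 became 4 with 12 arrays alone, Cxcr2 and Ptafr joining, and 0 in runs holding both groups. At week 4 the count of 1 became 0 with the authors' deposited log2 values, without background correction, with 12 arrays alone, in runs holding both groups and with the replicate number as a block. The F test over 6 weeks called 1 gene with the column run as a block. The causes were not tested. Leaving out 1 array gave 5 at week 16, 0 to 2 at weeks 8 and 4, and 0 to 1 in the F test over 6 weeks, the last added after seeing the data, where air rat 2 of week 1 or of week 4 was left out. At week 4 air rat 1 gave 0 and air rat 3 gave 2, Fpr1 joining. At weeks 0, 1 and 2 and at 1 and 2 mg/m3 every alternative gave 0. Deviations of same-numbered rats correlated at -0.317 to 0.266, with both signs in every comparison except week 4. There all 4 pairs lay below 0, at -0.317 to -0.102. The replicate block moved no other count of these genes. At week 16, 4 column runs held both groups, with 1 silica and 1 air rat each. Silica was higher in all 4 for Prok2, Cxcr2, Ccr1, Ptafr and Fpr1. Ltb4r had no value where detection on 24 arrays was asked. Dim probes limit Fpr1, C3ar1 and Ltb4r.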
